A study of Mus musculus with 14 samples.

Results

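The genes described are 49 mouse genes of integrin adhesion and mechanosignalling, the machinery by which cells grip the surrounding matrix and register its stiffness. They were chosen by name from knowledge of the pathway out of 21292 protein-coding gene names listed in the variant tables. The rule itself uses no measured value, but earlier results of these data were known when the genes were chosen. They comprise 13 integrin alpha and 8 integrin beta subunits, 12 focal adhesion proteins, 4 contractility genes, 3 mechanosensitive ion channels, 5 genes of the Hippo pathway, 2 genes of the adherens junction and 2 collagen receptor kinases. One of them, Ddr1, had no row in the tables used here. Counts of genes are out of the other 48 or of those tested, and values given for all 49 genes count Ddr1 as 0.

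Integrins are receptors made of an alpha and a beta subunit that bind collagen, laminin or fibronectin outside the cell and, through talin and vinculin, the actin cytoskeleton inside it. Pulling on a stiff matrix opens talin, recruits vinculin, and activates focal adhesion kinase, Src and the scaffold p130Cas, while RhoA and its kinases ROCK1 and ROCK2 drive myosin contraction. PIEZO channels open under membrane tension, and the coactivators YAP and TAZ enter the nucleus on stiff matrix and act through TEAD factors unless the LATS kinases hold them back. In the mammary gland this system is known for coupling collagen crosslinking to growth and invasion of the epithelium.

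DNA from 12 end-point mammary tumours was exome sequenced, 3 in each of 4 groups, in a study of matrix tension, oxidative stress and damage to DNA. Every tumour grew from a p53null mammary fragment of a Balb/c donor aged 8 to 10 weeks, so loss of p53 is shared by all groups, and was collected at a largest diameter of 2 cm. In the gel experiment the cleared mammary fat pad of wild-type females aged 3 to 4 weeks received a gel of collagen 1 with 20% basement membrane extract before the fragment. The collagen had been kept for 10 to 14 days in 0.1% acetic acid alone (soft, tumours A1, A2 and A3) or with 500 mM L-ribose, a sugar that crosslinks it (stiff, A7, A8 and A9). In the host experiment fragments were placed in LysM-Cre GPX4 wild-type (WT host, B1, B2 and B3) or knockout mice (KO host, B4, B5 and B6). LysM-Cre is active in myeloid cells, so the knockout of Gpx4, a peroxidase that detoxifies lipid peroxides, concerns the host's myeloid cells and not the implanted epithelium. No source used here gives the age of these hosts.

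The measurement is a count of variants per gene relative to the reference genome, split by predicted impact. HIGH covers changes such as frameshifts and gained stops, MODERATE mainly missense changes, LOW mainly synonymous changes, and MODIFIER changes in introns, untranslated and flanking sequence. Protein-altering variants are HIGH plus MODERATE, and coding variants add LOW. Read depth, positions and allele fractions are unknown, so inherited differences of the strain, somatic changes and calling errors cannot be told apart in a count, and long genes are not put on the same footing as short ones. Variant counts in DNA hold no markers that could check the labelled tissue. The targeted genes gave no check of the labels either, since a count does not show a deletion: A2 and B4 each carried 1 protein-altering variant of Trp53, B1 carried 2 and the other tumours none, and Gpx4 had none in any tumour. Over all genes the tumours held 8316 to 16536 protein-altering and 334408 to 695281 MODIFIER variants, the fewest protein-altering ones in B5 and A9.

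The 49 genes held 364 protein-altering variants over the 12 tumours, and most of them sat in few genes. At least 1 was found in 36 of the 48 listed genes (75%), against 55.5% of all protein-coding genes. The median over genes of the mean count was 0.167 per tumour for the 49 genes and 0.0833 for all genes. The 12 genes with the highest counts held 277 of the 364, or 76.1%. Variants of all genes were concentrated too: the 24.1% of genes with a mean of at least 20 MODIFIER variants held 75.8% of the protein-altering ones. By that same bound 17 of the 48 listed genes held 81.9% of theirs, so this concentration is not particular to the set. The 76.1% ranks genes by the protein-altering count itself, and no share over all genes is given beside it. A count in every tumour was found in 4 genes, Itga9, Itgav, Itgb3 and Tln1, against 7.48% of all genes. At the other end, 11 genes were hit in exactly 1 tumour (18.1% of all genes), and Itga4, Itga7, Zyx, Flna and Ilk held no coding variant in any tumour, against 34.1% of all genes. Itga4 and Itga7 encode the alpha subunits that pair with beta 1 on leukocytes and muscle, Zyx encodes the adhesion protein zyxin, Flna the actin crosslinker filamin A, and Ilk the pseudokinase that joins integrin tails to parvin.

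**Figure D1:**
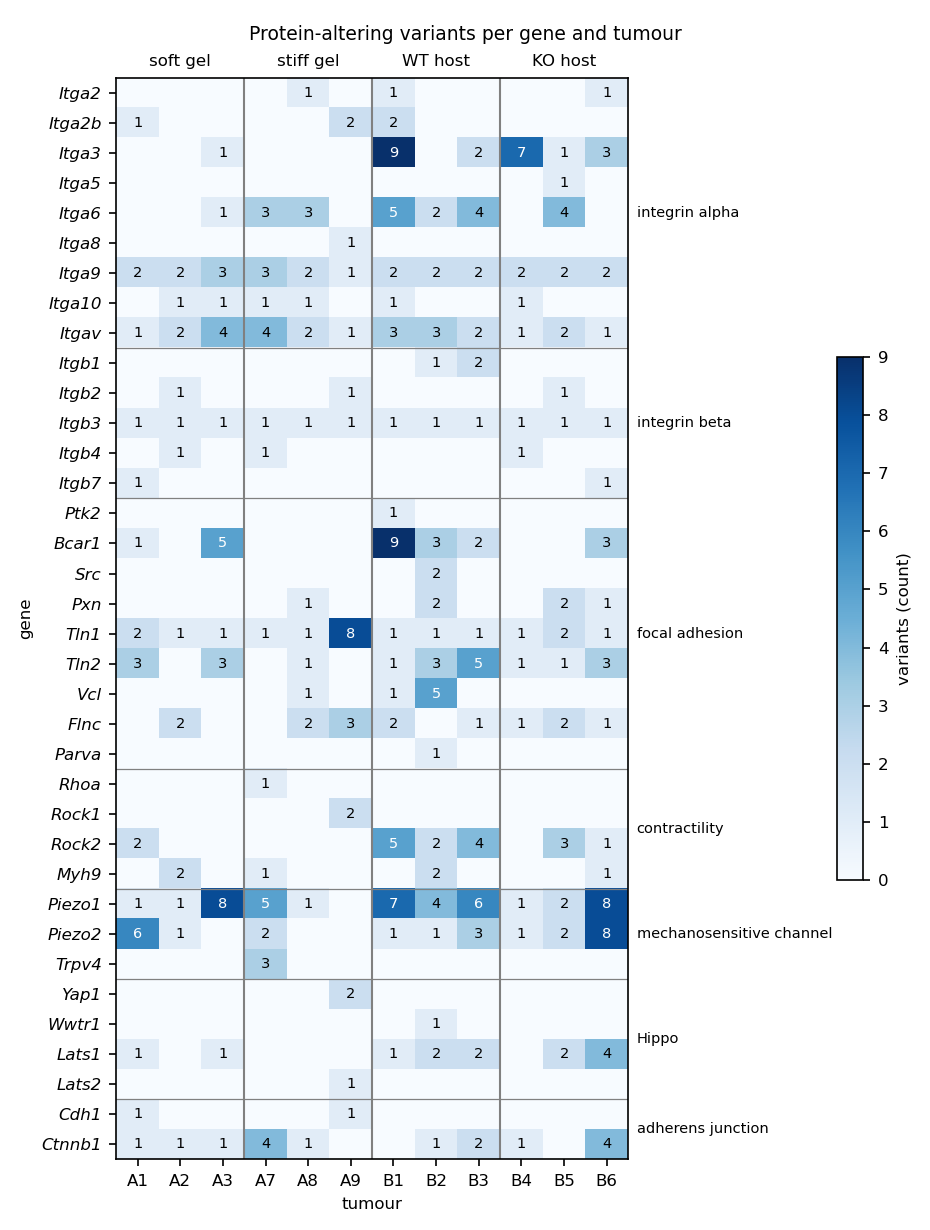
Protein-altering variants (count, shade and number) of the 36 genes with at least 1, in rows by role, in each of the 12 tumours, in columns by group. Itga9, Itgav, Itgb3 and Tln1 are filled in every column, while genes such as Trpv4 or Yap1 are filled in 1.

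Frameshifts were numerous beside missense variants in these genes, with a large part of them in 3 integrin subunits. The 49 genes held 105 frameshift and 204 missense variants, or 51.5 frameshifts per 100 missense variants, against 28.2 over all genes. Of these frameshifts 42 fell in Itga9, Itgav and Itgb3, which had only 15 missense variants, and 63 in the other genes. Without those 3 genes the figure was 33.3, still above that of all genes. The 3 were singled out from these same counts, so a lower figure without them follows from the choice. Gained stops stood at 7.35 per 100 missense variants, close to the 6.78 over all genes, and synonymous variants at 102 per 100 against 78.1. A HIGH-impact variant in any tumour was found in 25 of the 48 genes, against 31% of all genes.

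Among the integrin alpha subunits, Itga9 and Itgav carried variants in all 12 tumours, Itga9 at 1 to 3 and Itgav at 1 to 4. Itga9, whose product binds tenascin and osteopontin, had 2, 2 and 3 protein-altering variants in the soft tumours, 3, 2 and 1 in the stiff, and 2 in each of the 6 host tumours. One frameshift of Itga9 was counted in 11 tumours, all but A9, and 1 missense variant in every tumour except A7, which had 2. Itgav, the alpha subunit of the vitronectin receptors, had 1, 2 and 4 in the soft, 4, 2 and 1 in the stiff, 3, 3 and 2 in the WT host and 1, 2 and 1 in the KO host tumours. Frameshifts of Itgav ranged from 0 in B6 to 3 in A3 and were present in 11 tumours, whereas missense variants appeared only in A7 and B1, at 1 each. The groups overlapped for both genes in each comparison.

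Itga3 and Itga6, the alpha subunits of the laminin receptors of mammary epithelium, were instead uneven from tumour to tumour. Itga3 was at 0 in 5 of the 6 gel tumours, with 1 in A3, while the host tumours held 9, 0 and 2 (WT) and 7, 1 and 3 (KO). B1 and B4 together held 16 of its 23 variants. Itga6 was at 0, 0 and 1 in the soft, 3, 3 and 0 in the stiff, 5, 2 and 4 in the WT host and 0, 4 and 0 in the KO host tumours. Its synonymous variants sat in A7, A8, B1 and B3, tumours that also held 3 or more protein-altering ones. B5, with 4 protein-altering variants of Itga6, held no synonymous one. Itga10, a collagen-binding subunit, had 1 variant in each of A2, A3, A7, A8, B1 and B4, and Itga2, the collagen receptor subunit of epithelium and platelets, had 1 splice donor variant in each of A8, B1 and B6. Itga2b, the platelet subunit, held exactly 1 LOW-impact variant in each of the 12 tumours and 1, 2 and 2 protein-altering ones in A1, A9 and B1. Itga5 and Itga8 were hit once each, in B5 and A9, and Itga1 and Itga11 held no protein-altering variant.

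The beta subunits varied little between tumours, at 1 to 3 protein-altering variants per tumour over 8 genes. Itgb3, the beta 3 subunit that pairs with alpha v, held 1 variant in each of the 12 tumours, and it was a frameshift each time. Together with Itga9 and Itgav it makes 3 of 48 genes with a frameshift in at least 11 tumours, against 2.52% of all genes, and the same 3 genes had a HIGH-impact variant in at least 11 tumours, against 3.5%. Whether the frameshift counted in each tumour is the same variant cannot be read from the counts. Itgb1, the common partner of the collagen and laminin receptors, had 1 in B2 and 2 in B3 and was at 0 in the other tumours. Itgb2, Itgb4 and Itgb7 had a single variant in 3, 3 and 2 tumours, and Itgb5, Itgb6 and Itgb8 had none.

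The focal adhesion genes were led by the scaffold Bcar1 (p130Cas) and the talins. Bcar1 had 1, 0 and 5 in the soft tumours, 0 in each stiff tumour, 9, 3 and 2 in the WT host and 0, 0 and 3 in the KO host tumours. Every WT host tumour thus carried it, against 1 of 3 in the KO host and 0 of 3 in the stiff group, yet A2 at 0 and B6 at 3 put the groups into overlap. Tln1, encoding talin 1, stood at 1 or 2 in 11 tumours and at 8 in A9, 7 of them missense and 1 a gained stop. Its LOW-impact variants lay between 3 and 6 in every tumour. Tln2, the talin of muscle and brain, had 3, 0 and 3 in the soft, 0, 1 and 0 in the stiff, 1, 3 and 5 in the WT host and 1, 1 and 3 in the KO host tumours. Flnc, encoding filamin C, had 0, 2 and 0 in the soft, 0, 2 and 3 in the stiff, 2, 0 and 1 in the WT host and 1, 2 and 1 in the KO host tumours. Vcl, encoding vinculin, was concentrated in B2 with 5, beside 1 each in A8 and B1. The 2 adhesion kinases were nearly free of such variants: Ptk2 (focal adhesion kinase) had 1, in B1, and Src had 2, both frameshifts, in B2. Pxn, encoding paxillin, had 1 in A8, 2 in B2, 2 in B5 and 1 in B6, and Parva had 1 in B2.

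Of the contractility genes only Rock2 was hit often. It had 2, 0 and 0 in the soft, 0 in each stiff, 5, 2 and 4 in the WT host and 0, 3 and 1 in the KO host tumours. Its partner kinase Rock1 had 2, both in A9, and Rhoa 1, in A7. Myh9, the heavy chain of non-muscle myosin IIA, had 2 in A2 and B2 and 1 in A7 and B6.

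The 3 channel genes held 72 protein-altering variants, nearly all of them in Piezo1 and Piezo2. The sum of Piezo2, 25, was no higher than those of Itga9, 25, and Itgav, 26. Piezo1 had the highest sum of the 49 genes, 44, with 1, 1 and 8 in the soft, 5, 1 and 0 in the stiff, 7, 4 and 6 in the WT host and 1, 2 and 8 in the KO host tumours. Piezo2 had 6, 1 and 0 in the soft, 2, 0 and 0 in the stiff, 1, 1 and 3 in the WT host and 1, 2 and 8 in the KO host tumours. Both channels reached 8 in B6, where 5 of the Piezo2 variants were frameshifts and 7 of the Piezo1 variants missense. Within each group the lowest and highest tumour differed by at least 3 variants for Piezo1. Trpv4, a calcium channel opened by swelling, had 3 variants, all in A7.

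The Hippo genes were hit little, apart from the kinase Lats1. Lats1, which phosphorylates YAP and TAZ, had 1, 0 and 1 in the soft, 0 in each stiff, 1, 2 and 2 in the WT host and 0, 2 and 4 in the KO host tumours. The coactivator gene Yap1 had 2, both missense and both in A9, Wwtr1 (TAZ) 1 frameshift in B2, Lats2 1 missense variant in A9, and the transcription factor gene Tead1 none. At the adherens junction, Ctnnb1, encoding beta-catenin, had 1, 1 and 1 in the soft, 4, 1 and 0 in the stiff, 0, 1 and 2 in the WT host and 1, 0 and 4 in the KO host tumours. All 16 of its variants were missense, with none of HIGH impact. Cdh1 (E-cadherin) had 1 in A1 and 1 in A9, and the collagen receptor kinase gene Ddr2 had no protein-altering variant.

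In the question of matrix stiffness, stiff and soft tumours could not be separated by these genes. Summed over the 49 genes, the soft tumours held 24, 16 and 30 protein-altering variants (23.3 ± 7.02, SD, n = 3) and the stiff tumours 30, 18 and 24 (24 ± 6, SD, n = 3). The difference of 0.667 was well within the pooled SD of 6.53, and per 1000 protein-altering variants of the tumour it was 0.273. Bcar1 and Lats1 were at 0 in all stiff tumours and present in 2 of 3 soft ones, and Itga6 was present in 2 of 3 stiff tumours at 3 each and in 1 soft tumour at 1. Means were higher in stiff for 14 genes and lower for 10, against 15.9% and 20% of all genes, and equal for 24. In no gene did every stiff tumour lie above or below every soft tumour, which 1.18% and 2.69% of the genes tested did. By edgeR's quasi-likelihood test on the counts, with Benjamini-Hochberg adjustment, 0 of the 15 genes with enough counts (a sum of at least 3) and 0% of 4311 genes passed an adjusted p of 0.05. An unadjusted p under 0.05 was reached by 0 of the 15 and by 2.46% of all genes tested, and DESeq2 also called 0.

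The comparison of hosts asked whether loss of Gpx4 in myeloid cells went with a different count. The WT host tumours held 53, 39 and 39 protein-altering variants in the 49 genes (43.7 ± 8.08, SD, n = 3) and the KO host tumours 19, 28 and 44 (30.3 ± 12.7, SD, n = 3). The KO host mean was lower by 13.3, against a pooled SD of 10.6, and B6 lay above 2 of the 3 WT host tumours. Relative to all protein-altering variants of the tumour the gap was small, at 3.03 ± 0.220 per 1000 in WT and 2.70 ± 0.842 in KO hosts (SD, n = 3 each), and B5 had the highest share of all 12 tumours, 3.37. Bcar1 had a mean of 4.67 in WT and 1 in KO hosts, Rock2 3.67 and 1.33, and Itga6 3.67 and 1.33, whereas Piezo2 went the other way, at 1.67 and 3.67, with B6 at 8 and the other KO host tumours at 1 and 2. Means were higher in KO for 10 genes and lower for 14, against 14% and 23.6% of all genes. No gene had every KO tumour above every WT tumour or the reverse, which 0.735% and 4.26% of genes tested had. By edgeR 0 of 18 genes tested, and 0% of 5308 genes, passed an adjusted p of 0.05, and 0 of the 18 and 3.75% of all had an unadjusted p under 0.05. DESeq2 called 0 as well.

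**Figure D2:**
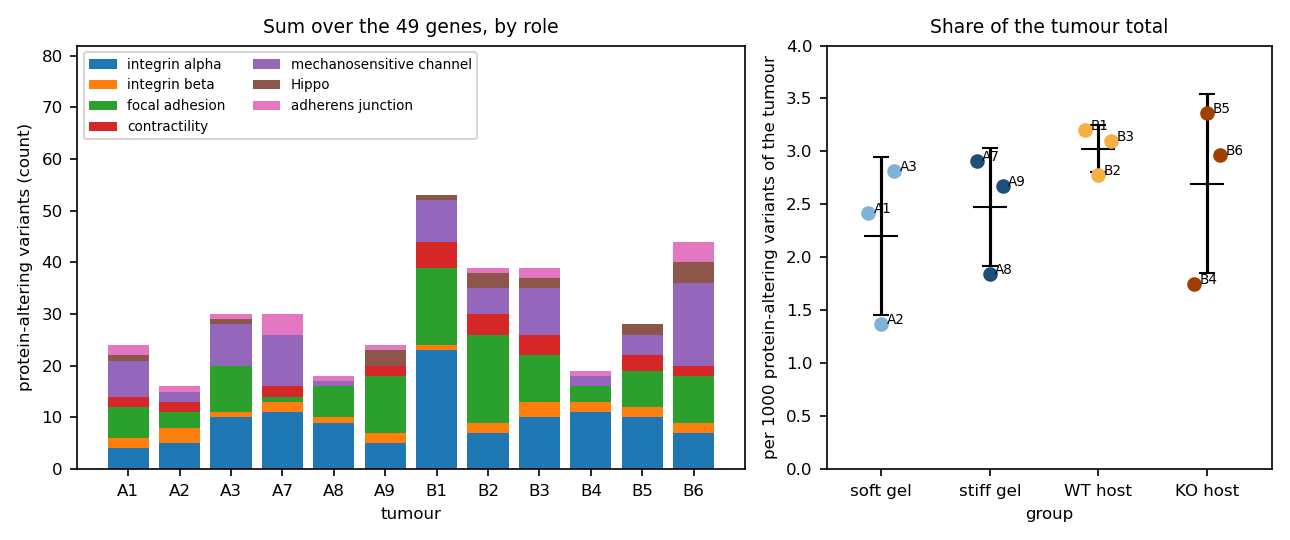
Left, protein-altering variants (count) summed over the 49 genes in each tumour, stacked by role; right, the same sum per 1000 protein-altering variants of the tumour, with each tumour as a point and the mean and SD of each group (n = 3) as a line and bar. B1 holds 53 and A2 16, and the shares of the 4 groups overlap.

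The gel tumours held fewer variants in these genes than the host tumours, at 23.7 ± 5.85 against 37 ± 11.98 (SD, n = 6 each). The gels and the hosts differ together in this comparison and cannot be told apart, and all genes together went the same way, with 10217 ± 909 protein-altering variants in gel and 12858 ± 2948 in host tumours (SD, n = 6 each). Per 1000 protein-altering variants the 49 genes had 2.34 ± 0.607 in gel and 2.86 ± 0.580 in host tumours (SD, n = 6 each), and the ranges of 1.37 to 2.91 and 1.75 to 3.37 overlapped. Means were higher in gel for 14 genes and lower for 17, against 19.4% and 29.6% of all genes. No gene had non-overlapping groups, against 0% of genes tested with every gel tumour above every host tumour and 0.205% with every one below.

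Itga3, Lats1 and Rock2 had the smallest unadjusted p among the 24 genes tested. Over the 6 tumours of each kind Itga3 summed to 1 in gel and 22 in host tumours, a ratio of 22 (exact 95% interval 3.56 to 908.0), Lats1 to 2 and 11, a ratio of 5.5 (1.20 to 51.1), and Rock2 to 2 and 15, a ratio of 7.5 (1.74 to 67.6). These intervals cover counting error only and treat the variants as independent, which the clustering in B1 and B4 does not bear out for Itga3. Lats1, with 4 in B6, and Rock2, at 5, 2 and 4 in WT but 0, 3 and 1 in KO hosts, were uneven too. The intervals also leave out that these genes were picked for their small p and that all genes together held more variants in host tumours. The fitted log2 fold changes, gel over host, were -3.99 for Itga3 (SE 1.29), -2.63 for Lats1 (SE 0.90) and -2.90 for Rock2 (SE 1.03). Itga3 was present in 5 of 6 host tumours and 1 of 6 gel tumours, Lats1 in 5 and 2, and Rock2 in 5 and 1. Their adjusted p by edgeR was 0.648 each, and over the alternatives it ran from 0.354 to 0.909 for Itga3 and from 0.567 to 0.909 for Lats1 and Rock2. They were the 3 of the 24 with an unadjusted p under 0.05, against 6.05% of 6829 genes. At an adjusted p of 0.05 edgeR called 0% of those genes, and DESeq2 called 5, none of them among the 49. The difference between the stiffness effect and the knockout effect was tested as an interaction, and 0% of 6829 genes passed, with 1.98% and 0 of the 24 genes at an unadjusted p under 0.05.

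The other genes of the pathway, a list of 91 that holds further integrins, adhesion, myosin, channel and Hippo genes, gave no call either. In the stiffness, host and experiment comparisons 30, 34 and 41 of them could be tested and 0 passed edgeR's adjusted p of 0.05 in either direction. In 4 of them the mean protein-altering count was above that of every one of the 49 genes. Kank1, an adhesion belt protein that binds talin, had a mean of 9.83 over the 12 tumours (range 7 to 13), the formin Diaph1 9.33 (7 to 13), the non-muscle myosin IIB heavy chain Myh10 9.08 (7 to 11), the actin crosslinker Actn4 5.25 (3 to 8) and the serum response coactivator Mrtfb, the next in order, 3.08 (1 to 5). Their SD between tumours was 1.51 to 2.12, against 3.03 for Piezo1, which ran from 0 to 8 around a mean of 3.67.

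MODIFIER variants, read as a second measure after the protein-altering counts had been seen, were far more numerous and so less limited by counting error. The 48 genes held 15897 intron variants, 651 in 3′ and 57 in 5′ untranslated regions. They were concentrated as well: 17 of the 48 genes had a mean of at least 20 per tumour, against 24.1% of all genes, and held 89.0% of the MODIFIER variants of the set. These were Itga3, Itga6, Itga9, Itgav, Itgb3, Bcar1, Src, Tln1, Tln2, Vcl, Parva, Rock2, Piezo1, Piezo2, Lats1, Tead1 and Ctnnb1. Src, at a mean of 25.8, was the lowest inside this bound, and Rock1 and Pxn, at 17.3 each, the highest outside. No share over all genes is given beside the 89.0%. The same 17 genes held 298 of the 364 protein-altering variants, or 81.9%, against 75.8% for all genes past the bound. The most constant of them was Tln1, at 38 to 50 in the 12 tumours, and among the widest was Itga6, at 44 in A9 to 220 in B1.

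In stiff tumours the MODIFIER counts of 6 genes lay below those of every soft tumour, which was 13.0% of the 46 tested against 8.13% of all genes. Tead1 had 85, 107 and 111 in soft and 66, 71 and 66 in stiff tumours. Rock2 had 61, 68 and 75 against 50, 49 and 33, and Tln2 158, 166 and 142 against 119, 126 and 102. Parva, encoding the actin-binding parvin of the ILK complex, had 100, 96 and 69 against 67, 66 and 49. The remaining pair was sparse: Itga4 had 5, 8 and 5 against 1, 2 and 3, and Itgb6, the epithelial partner of alpha v, 4, 11 and 5 against 2, 0 and 3. The total of all genes moved the same way, from 381204, 452463 and 410283 in soft to 379256, 356962 and 335381 in stiff tumours, and its part in these differences was not tested beyond scaling. The fitted log2 fold change of Tead1 was -0.58 (SE 0.15) and, scaled to each tumour's total, -0.36 (SE 0.14), with adjusted p of 0.416 and 0.623 by edgeR. No gene passed in either fit, so that 0% of all genes were called.

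Between hosts, Itgav, Tln1 and Vcl had fewer MODIFIER variants in every KO than in every WT host tumour. These were 3 of 47 genes, a share close to the 6.84% of all genes. Vcl had 50, 67 and 44 in WT and 42, 8 and 34 in KO hosts, Itgav 59, 51 and 62 against 40, 36 and 47, and Tln1 49, 50 and 47 against 44, 44 and 46. Scaled to the tumour total, the fitted difference of Tln1 changed sign, from -0.12 (SE 0.23) to 0.29 (SE 0.27). By edgeR 0% of all genes, and none of these, passed an adjusted p of 0.05 without scaling. With scaling 35 genes passed, none of them among the 49.

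Between the experiments, scaling to the tumour total moved the fold changes upward, and a different set of genes passed. It also changed the SE, as for Tead1 from 0.17 to 0.11, and which change moved genes past the threshold was not tested. With counts as they are, the median log2 fold change, gel over host, was -0.20 over all genes tested and -0.10 over the 47 of the set. With each tumour scaled to its total these medians became 0.23 and 0.33. Over all genes edgeR called 1094 lower and 62 higher in gel tumours unscaled, and 463 lower and 261 higher scaled. Unscaled, edgeR called Tead1 and Vcl lower in gel tumours, 2 of 47 genes, a share no larger than the 5.28% of all genes called lower. Tead1 had 66 to 111 in gel and 86 to 202 in host tumours (log2 fold change -0.81, SE 0.17, adjusted p 0.0187), and Vcl 11 to 23 and 8 to 67 (-1.23, SE 0.33, adjusted p 0.0444). In Vcl the host tumour B5, at 8, lay below all gel tumours. The call of Vcl was lost without any 1 of A1, A2, A3, A8, A9, B1, B2, B4 or B6 (adjusted p by edgeR up to 0.118), and that of Tead1 without A1, A9 or B1 (up to 0.0603). By the median over transcripts neither was called (adjusted p by edgeR 0.0788 for Tead1 and 0.0925 for Vcl). Scaled to the total, neither remained past the threshold (adjusted p 0.0673 for Tead1 and 0.104 for Vcl, both still lower). Bcar1 and Itgb5, the beta subunit of an alpha v receptor, were then called higher in gel tumours, 2 of 47 against 1.26% of all genes higher.

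Bcar1 is an example of a gene called only after scaling. Its counts did not separate the experiments, at 90 ± 7.40 in gel and 90.3 ± 13.4 in host tumours (SD, n = 6 each; log2 fold change -0.00, SE 0.15). Per 100000 MODIFIER variants of the tumour it had 23.5 ± 2.71 in gel and 17.5 ± 2.52 in host tumours (SD, n = 6 each; 0.44, SE 0.12, adjusted p 0.0467 by edgeR). Itgb5 was higher in gel tumours on both scales, at 13, 19, 12, 4, 14 and 13 against 6, 9, 6, 5, 8 and 6 (0.87, SE 0.33, adjusted p 0.138 unscaled and 1.30, SE 0.35, adjusted p 0.0475 scaled, by edgeR), and A7 alone put it into overlap. Without A9, without A1 or without B1 the unscaled fit called 0 of the 47 genes, and without B5 it called 7, while all genes called ran from 114 without A9 to 2616 without B5.

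**Figure D3:**
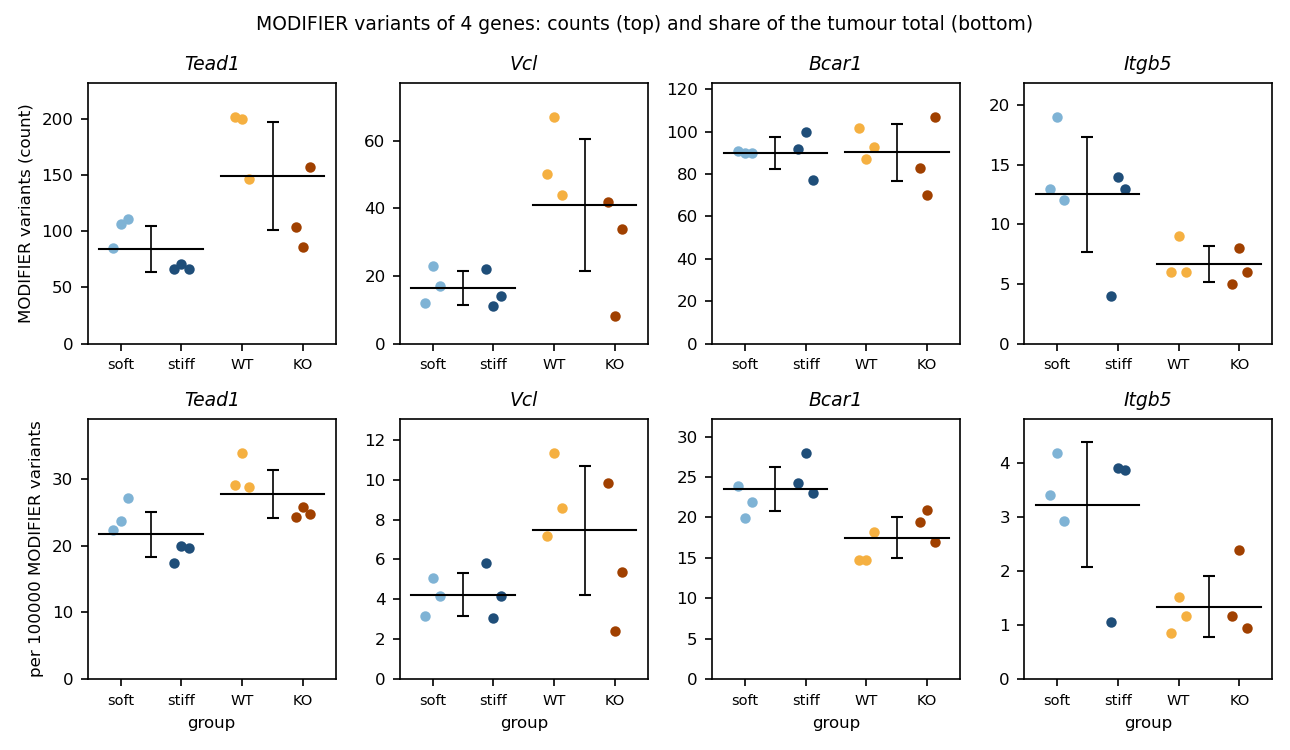
MODIFIER variants of Tead1, Vcl, Bcar1 and Itgb5 as counts (top) and per 100000 MODIFIER variants of the tumour (bottom), 1 point per tumour by group; lines and bars are the mean and SD of the 6 gel and the 6 host tumours. Tead1 and Vcl have lower means in gel tumours in both rows, and Bcar1 differs in the bottom row only.

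In the 91 further pathway genes the unscaled fit called 7, against 5.57% of all genes, and the scaled fit 6, against 3.49%. Tns1, encoding the focal adhesion protein tensin 1, was higher in gel tumours on both scales. It had 39, 29 and 39 in soft, 26, 39 and 27 in stiff, 16, 12 and 6 in WT host and 8, 7 and 6 in KO host tumours. Every gel tumour thus lay above every host tumour, which 0.101% of all genes tested did. How many of the 91 genes had no overlap is not given. By edgeR the log2 fold change of Tns1 was 1.88 (SE 0.26, adjusted p 0.00362) and, scaled, 2.33 (SE 0.25, adjusted p 3.31e-05). Afdn, Diaph3 and Kcnk2 were lower in gel tumours in both fits.

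Tumour A9, from the stiff group, was often lowest where MODIFIER counts were large and often highest where they were small, seen after its values were known. In 9 of the 17 genes with a mean of at least 20 it was alone lowest of the 12 tumours, against 27.5% of all such genes. These were Itga6, Itga9, Itgav, Src, Tln2, Parva, Rock2, Lats1 and Ctnnb1. Src fell to 3 in A9 against 11 to 56 in the other tumours, and Itgav to 21 against 36 to 62. In 8 of the 31 genes under that mean it was alone highest, against 15.5% of all such genes: Itga1, Itga5, Itga11, Itgb2, Itgb4, Rhoa, Cdh1 and Ddr2. Cdh1 had 21 in A9 against 1 to 6, Ddr2 23 against 3 to 13, and Itgb4, the beta subunit of the hemidesmosome, 15 against 1 to 8. Itgb1 (0 against 2 to 16) and Pxn (8 against 9 to 35) went the other way, with A9 alone lowest. Neither part alone was particular to A9. Over all genes B5 was alone lowest in 22.4% of those with a mean of at least 20, and B1 alone highest in 13.7% of the others. Of the protein-altering variants of A9, 11 lay in the 17 genes and 13 in the rest of the set, where the other tumours had 9 to 46 and 1 to 7. A9 was thus highest in the rest of the set but not lowest in the 17 genes, where A2 had 9. Tln1, in which A9 was highest, held 8 of the 11. Over all genes A9 also had the fewest frameshifts per 100 missense variants, 19.9, with B5 next at 23.1 and the other tumours at 27.7 to 30.8. The part of these differences in the comparisons was not tested, beyond the values without A9 given above.

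**Figure D4:**
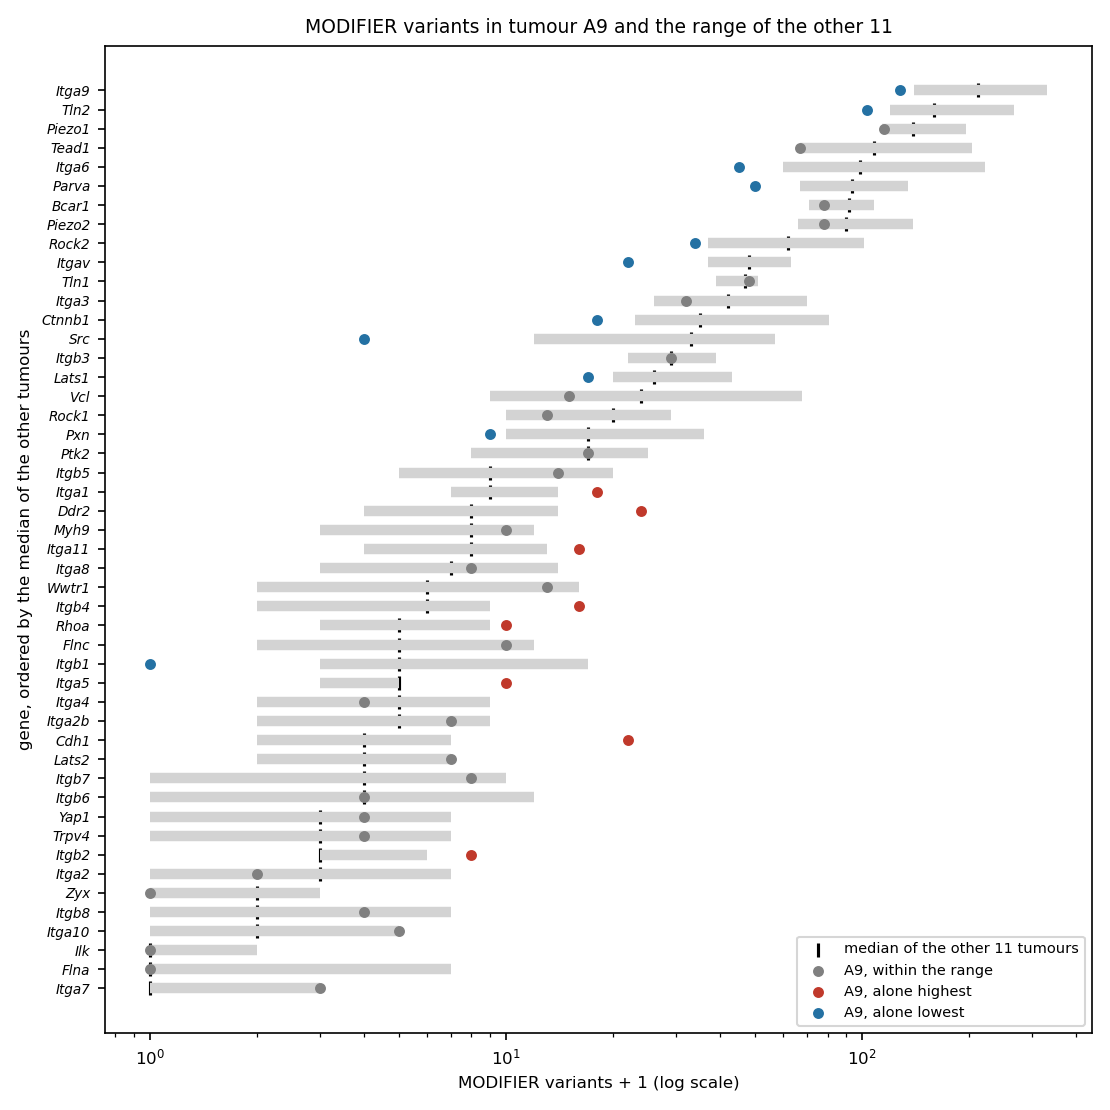
MODIFIER variants plus 1 (log scale) of each gene in tumour A9 (points) and in the other 11 tumours (grey bar, lowest to highest, with the median as a tick), genes ordered by that median. A9 lies below the bar mainly at the top, as for Src, and above it mainly in the lower part, as for Cdh1 and Ddr2.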

How the data were processed

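Exome variants of 12 tumours were analysed; 2 tail samples are not analysed here. The deposited tables, in snpEff's format per the file headers, give whole-number counts of variants for each transcript. Columns of other effects, such as start and stop changes, were deposited as counts too. The submitters' processing notes name GRCm39, BWA 2.2.1, SAMtools 1.19.2 and GATK. How the caller was set, which filters applied and whether the tails served as matched normals is not given in the sources used here. Per the labels' protocols, 150 bp read pairs were sequenced to a stated depth above 50x. Depth per variant is unknown, so no interval on a count's depth is given.

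A gene's count in each impact class was the maximum over its protein-coding transcripts, and an unlisted gene counted as 0. Overlapping genes can share variants. Rows with a blank biotype (8962 to 11049 per tumour) were left out. Genes with a sum of at least 3 were tested by the quasi-likelihood test of edgeR 4.0.16 with equal library sizes, and p-values were adjusted by Benjamini-Hochberg over all genes tested (threshold 0.05), 3 tumours against 3 within an experiment and all 12 in 4 group means otherwise; DESeq2 1.42.0 was an alternative. The SE of a fold change was computed as its size over the root of the F statistic and is approximate. Simulated data were used to test fits, and the outcome is not given here. No conclusion on genes with counts as low as those described is drawn from it. The labels call each tumour a separate sample, so p-values reflect only how these tumours vary.

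The genes and lists were chosen with earlier results of these data known. Protein-altering counts in every tumour are given, in the text or its first figure, for 2 kinds of gene. These are the 12 genes with the largest mean count and genes with a HIGH-impact variant in at least 6 tumours. MODIFIER counts of genes past a test or without overlap are given per tumour, as ranges or as means. Genes at 0 are named, as are the 5 pathway genes with the largest means. Not every pathway gene past a test on MODIFIER variants is named. Alternatives changed the collapsing, the biotypes, the impact class, the scaling, the filter, the tool and the tumours included. MODIFIER variants were added as a readout after seeing the data, as was the bound of 20. Sequences are not printed, since the counts carry no positions.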

Additional observations from a re-analysis of the deposited data

Results flagged for a closer look

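In 9 of 27 sets of values tried (the protein-altering counts of a gene in the 6 gel or the 6 host tumours), 1 tumour stood far above the other 5. Chance flags about 1 in 20 such sets where values are spread evenly, and in counts that are mostly 0 or 1 a single variant is enough. In the gel tumours these were Itga3 in A3 (1, the others at 0), Rock2 in A1 (2, the others at 0), Bcar1 in A3 (5), Piezo2 in A1 (6), Ctnnb1 in A7 (4) and Tln1 in A9 (8, the others at 1 or 2). In the host tumours they were Bcar1 in B1 (9), Piezo2 in B6 (8) and Tln1 in B5 (2, the others at 1). These tumours, A1, A3, A7, A9, B1, B5 and B6, come from all 4 groups, and no cause was tested.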

How the results depend on the processing

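In the stiffness and host comparisons and in the test of their difference, every alternative run on coding, protein-altering, HIGH or missense counts called 0 genes. Between gel and host tumours 0 genes became 5 with DESeq2 and 0 to 3 when 1 tumour was left out (3 without A2), none of them among the 49. The summed difference between gel and host tumours of -13.3 became -2.67 with HIGH-impact variants only, which are a part of the protein-altering ones. The HIGH-impact means were 9.33 in gel and 12 in host tumours, and the MODERATE means 14.3 and 25. The 4 genes hit in all tumours became 2 by the median over transcripts, 7 with coding variants, 1 with HIGH-impact variants only and 2 with missense variants only. On MODIFIER variants, 1156 genes called between gel and host tumours became 724 scaled to the total, 1831 with DESeq2, 1809 without A9 and B5, and 114 to 2616 when 1 tumour was left out; the 2 of the 49 genes called became 5 with DESeq2, 0 by the median over transcripts and 0 to 7 when 1 tumour was left out. Of 507 differences of single genes under an alternative, 497 moved by no more than 1 SD and 10 by more. No paired analysis was possible because the groups share no replicate numbers. Read depth per variant is unknown, and counts of 0 to 9 per gene and tumour limit what 3 tumours a group can show.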
